A study of Mus musculus with 3 samples.

Results

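Immediate early genes are the genes that cells switch on first, and for a short time, when a growth factor, cytokine or stress reaches them. The set described here holds 37 such genes and genes of the growth factor response, listed by gene name: AP-1 subunits, EGR and NR4A factors, other inducible transcription factors, small regulators of growth and mRNA decay, inhibitors of MAP kinase signalling, and secreted proteins. They are 37 of the 24842 genes on the array, and on 1 or more arrays 35 of them gave a signal well above background, as did 15795 of all genes. Egr3, with 3 probes, and Arc, with 1 probe, were not well above background on any array and have no fold. Egr2 was well above background on the Empty and Cd74 arrays but not on the Tmem54 array, and the other 34 were measured on all 3.

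The cells were Hepa1c1c7, a mouse hepatoma line used in studies of liver enzymes. They were transfected with the Empty vector, with a vector for Cd74 or with a vector for Tmem54, and the total RNA of each transfection was labelled with Cy3 and hybridised to 1 Agilent array. Cd74 is the invariant chain of MHC class II and part of the receptor for the cytokine MIF, and Tmem54 is a transmembrane protein. The time after transfection, the promoter of the vectors, any selection of transfected cells and the use of pools or clones are not given in the sources used here. With 1 array per vector no difference has a replicate, and no test was possible.

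As background, most immediate early genes need no new protein to be transcribed. Extracellular signals reach them through the ERK, JNK and p38 kinases and through cyclic AMP, which act on factors already bound at the promoter, such as SRF at CArG boxes and CREB at cyclic AMP response elements (CRE). Many of the products are transcription factors, and others, such as the dual specificity phosphatases (Dusp) and Sprouty proteins, switch the kinases off again. In liver the same genes are known to respond when hepatocytes start to divide after loss of tissue.

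A signal is the deposited processed intensity of the brightest probe of a gene. A difference is that of log2 signals after subtraction of the 75th percentile of each array (687 for Empty, 656 for Cd74 and 693 for Tmem54). The error given after ± is the error that the scanner software assigns to the processed signals of both arrays, about 0.20 for bright probes. It covers noise within arrays and not the spread between cultures. Spots well above background made up 55.7% to 57.2% of spots other than controls. Cd74 had a signal of 26.8 with Empty, 10856 with Cd74 and 22.4 with Tmem54. Tmem54 was well above background on its own array only, with a signal of 19747, at least 1494-fold higher than with Empty. Of 10 hepatocyte markers, 4 (Alb, Trf, Serpina1a and Afp) were well above background, and Apoa1, Apob, Ttr, Hnf4a, Fgb and Ahsg were not. The summed signal of these 4, in units of the 75th percentile of the array, was 115 with Empty, 97.7 with Cd74 and 127 with Tmem54. Trf and Afp made up most of these sums. Alb had signals of 5727, 2993 and 10261 on the Empty, Cd74 and Tmem54 arrays, differences from Empty of -0.87 with Cd74 and 0.83 with Tmem54. Of the 4, 3 were below 0 with Cd74 (47.6% of all genes) and 0 with Tmem54 (50.9%). Of 6 macrophage markers, 5 were well above background, all but Adgre1, with sums over the 5 of 17.8, 16.9 and 17.4. Of 9 fibroblast and stellate cell markers, 7 were well above background, all but Lum and Thy1, with sums over the 7 of 132, 140 and 119. Dcn, with signals of 67724, 75618 and 57024, made up most of these sums, and 6 of the 7 were below 0 in Cd74 against Empty (median -0.25). The part of these markers in the differences below was not tested. A lower share of responding cells and less RNA per cell cannot be told apart in such bulk RNA.

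With the Cd74 vector, the immediate early genes were mostly a little brighter than with the Empty vector. The difference was above 0 for 32 of the 35 genes, against 52.3% of all 15630 genes compared, and its median was 0.21 on the log2 scale against 0.01 over all genes. The set was chosen with earlier results of these data known, so its counts beside the shares of all genes are descriptions. The 3 genes below 0 (47.6% of all genes) were Dusp6, Klf10 and Hbegf. The differences were small: 19 genes were higher by more than the model error, against 18.3% of all genes, and 0 were lower by more than it, against 16.1%. The count past 1.5-fold was 4 on the higher side, Nr4a2, Nr4a1, Dusp2 and Myc (3.38% of all genes), and 0 on the lower side (4.14%). Of these, Dusp2 read 0.49 with normexp background correction, below 1.5-fold. Past 2-fold the count was 1 on the higher side, Nr4a2 (1.02%), and 0 on the lower side (1.4%).

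With the Tmem54 vector, the same genes lay close to the Empty array and mostly slightly below it. The difference was above 0 for 9 genes (49% of all 15520 genes compared) and below 0 for 26 (50.9%), counting Egr2 by its bound. Its median was -0.05, against 0.00 over all genes. Higher values by more than the model error were found for Fos, Klf2 and Ctgf, 3 genes against 5.91% of all. Lower values by more than it were found for 7 genes (Fosl1, Jun, Junb, Egr1, Nr4a2, Ier3 and Dusp2), against 8.54% of all. Past 1.5-fold the only gene was Ier3, 1 on the lower side (2.49%), with 0 on the higher side (1.32%). Ier3 read -0.53 with normexp background correction and -0.583 with centring on the median, short of 1.5-fold in both. Past 2-fold there were 0 genes in either direction (0.522% of all genes higher and 0.812% lower). Both comparisons use the same Empty array, so its own deviation enters both.

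The Cd74 and Tmem54 arrays can be set against each other without the Empty array. In that comparison 28 of the 35 genes were higher with Cd74 (54.4% of all 15421 genes compared), 7 were lower (45.6%), and the median difference was 0.37 against 0.03 over all genes. The model error was exceeded by 25 genes on the higher side (22.3% of all genes) and by 2, Fos and Dusp6, on the lower side (17.4%). Egr2 is counted by its bound in both the 28 and the 25. Past 1.5-fold there were 10 genes higher with Cd74 (5.07%): Fosl1, Jun, Egr1, Nr4a1, Nr4a2, Myc, Ier3, Btg2, Dusp2 and Cyr61. Of these, Btg2 fell below 1.5-fold with normexp background correction (0.52), centring on the median (0.55), the deposited value table (0.56) and quantile normalization (0.580). Egr1 fell below it with normexp (0.54) and with centring on the median (0.579). On the lower side there were 0, against 4.79% of all genes. Past 2-fold there were 2, Nr4a2 and Dusp2, on the higher side (1.63%) and 0 on the lower side (1.69%). Over the 34 genes measured on all arrays, the Cd74 array was the highest for 27 (46.1% of 14472 genes), the Tmem54 array the lowest for 24 (36.6%), and the Empty array the highest for 1, Klf10 (21.6%). The Tmem54 array was the highest for 6 (32.3%): Fos, Fosb, Nr4a3, Klf2, Dusp6 and Hbegf. The order Cd74, Empty, Tmem54 from high to low was held by 24 (28.4%). The 3 comparisons share arrays, so these counts are no independent support for each other.

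**Figure D1:**
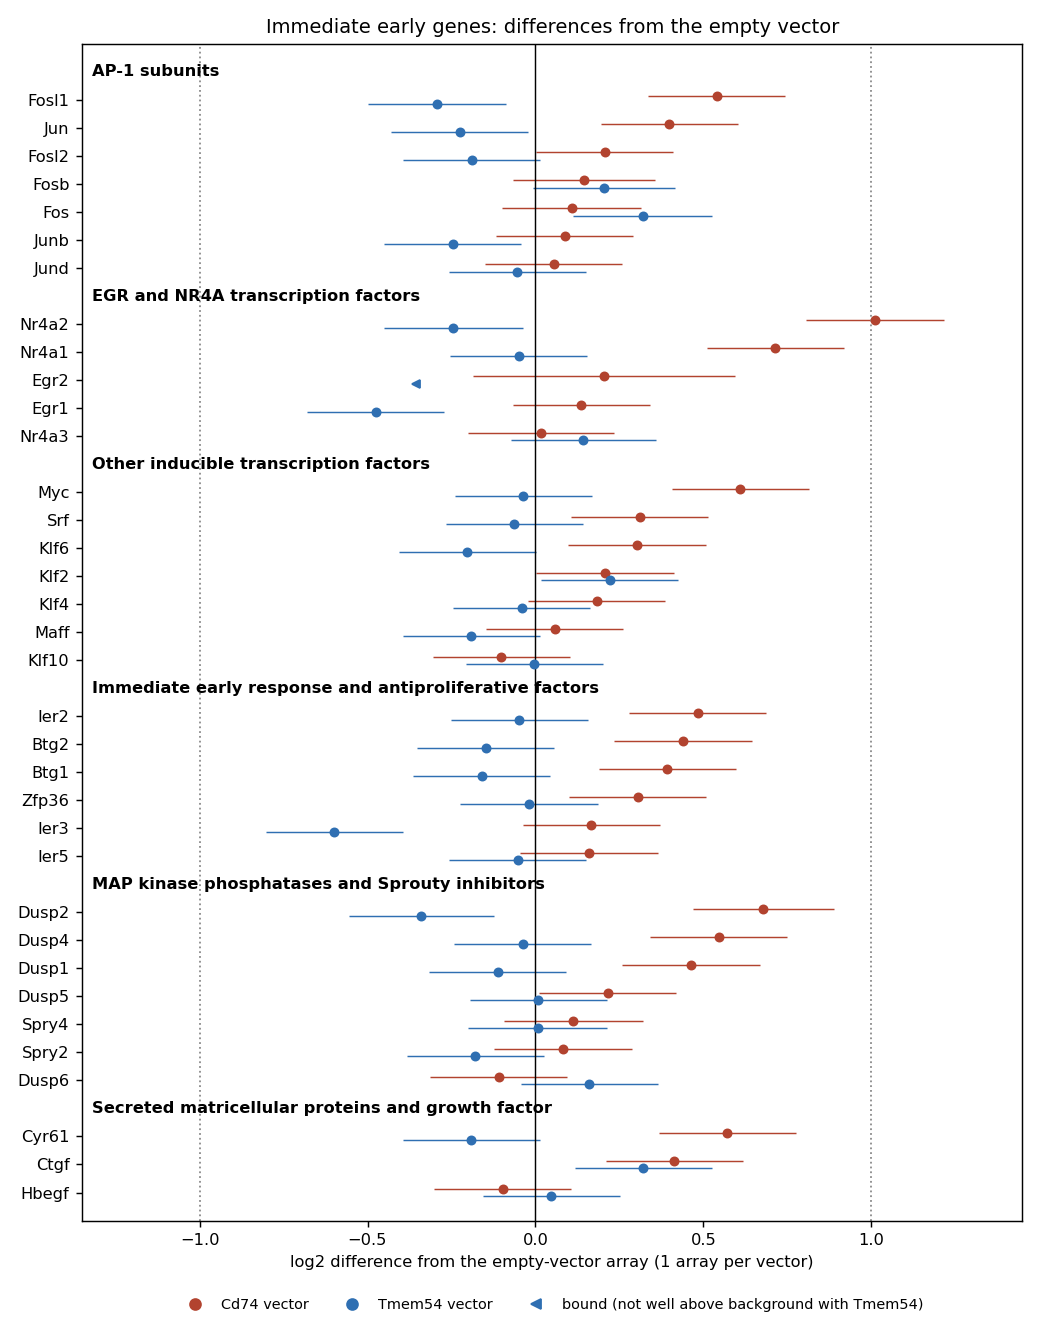
Log2 difference from the Empty array (x axis) for the 35 genes well above background, grouped by role, with Cd74 in red and Tmem54 in blue. Bars are the model error of the difference, dotted lines mark 2-fold, and the triangle is the bound for Egr2. Most red points lie between 0 and 0.7 with Nr4a2 at 1.01, and most blue points lie between -0.35 and 0.

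The AP-1 factor is a dimer of a Fos protein and a Jun protein, or of Jun proteins alone, that binds AP-1 sites. All 7 AP-1 genes were above 0 with Cd74 (52.3% of all genes), with a median difference of 0.14, but only Fosl1, Jun and Fosl2 by more than the model error. With Tmem54, 5 of 7 were below 0 (50.9% of all genes), with a median of -0.19. Fosl1, which encodes FRA1, a Fos protein without a transactivation domain that follows sustained ERK signalling, had a signal of 5447 with Empty, 7565 with Cd74 and 4484 with Tmem54. It differed from Empty by 0.54 ± 0.20 with Cd74 and by -0.29 ± 0.20 with Tmem54, the widest range among the AP-1 genes. Jun, the main Jun protein of AP-1 and a target of JNK, followed the same order with signals of 2903, 3656 and 2504. Its differences from Empty were 0.40 ± 0.20 with Cd74 and -0.23 ± 0.20 with Tmem54.

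Fos, the classical immediate early gene, was dim and did not follow that order. Its signal was 177 with Empty, 182 with Cd74 and 223 with Tmem54, so the Tmem54 array was the highest. The difference from Empty was 0.11 ± 0.21 with Cd74 and 0.32 ± 0.21 with Tmem54. Fosb, its close relative, was also highest with Tmem54, at 133 against 114 with Empty and 121 with Cd74, and its differences of 0.14 and 0.20 were within the model error of 0.21. Fosl2, which encodes FRA2, read 1629, 1796 and 1441 on the Empty, Cd74 and Tmem54 arrays. The remaining Jun proteins were close to Empty with Cd74. Junb, which can oppose Jun, had signals of 22339, 22671 and 18990, and Jund, the Jun protein that resting cells hold, had 28645, 28440 and 27817. For Jund all 3 differences were within the model error, the largest being 0.11 between Cd74 and Tmem54.

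The NR4A genes encode orphan nuclear receptors that act without a known ligand and are induced by cyclic AMP, growth factors and stress. In Cd74 against Empty they gave both the largest and the smallest difference of the set. Nr4a2 (NURR1; probe on chromosome 2, 56960000 to 56960059, build mm9) had a signal of 256 with Empty, 494 with Cd74 and 218 with Tmem54. The Cd74 array was far above the others, and the Tmem54 array was slightly below Empty, with a difference of -0.24 ± 0.21. Nr4a2 differed by 1.01 ± 0.20 between Cd74 and Empty, rank 158 from the highest of 15630 genes, and by 1.26 ± 0.21 between Cd74 and Tmem54. A different probe of the gene gave 1.05 and 1.23. The 2-fold count of Nr4a2 against Empty rests on the scaling: it read 0.99 with centring on the median, 0.93 with normexp background correction and 0.998, just under 2-fold, in the deposited value table.

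Nr4a1 (NUR77), which also moves to mitochondria in dying cells, had signals of 4647, 7283 and 4529 on the Empty, Cd74 and Tmem54 arrays. Again the Cd74 array was above the others, by 0.71 ± 0.20 against Empty and 0.76 ± 0.20 against Tmem54, while Tmem54 differed from Empty by -0.05. Nr4a3 (NOR1), the remaining receptor of the family, showed no such pattern at signals of 82.0, 79.2 and 91.3. Its differences from Empty were 0.02 ± 0.22 with Cd74 and 0.14 ± 0.22 with Tmem54. Only 1 of the 3 Nr4a3 probes was well above background on any array, and these values rest on it.

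The promoters of the NR4A genes are shown because these 3 genes share a dense run of one motif and yet differed in their values. The windows are the 250 bases before the RefSeq start site, build GRCm38.p6, 5' to 3' on the strand of the gene: Nr4a1 at chr15:101266596-101266845 (+), Nr4a2 at chr2:57124004-57124253 (-) and Nr4a3 at chr4:48045055-48045304 (+). Capitals mark the core of the CRE, TGACG, or CGTCA where it lies on the opposite strand.
Nr4a1: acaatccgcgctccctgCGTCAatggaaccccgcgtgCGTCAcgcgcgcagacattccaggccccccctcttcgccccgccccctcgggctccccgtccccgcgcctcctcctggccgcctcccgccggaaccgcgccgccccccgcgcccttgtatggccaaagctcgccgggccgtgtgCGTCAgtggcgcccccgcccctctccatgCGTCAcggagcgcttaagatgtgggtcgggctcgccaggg
Nr4a2: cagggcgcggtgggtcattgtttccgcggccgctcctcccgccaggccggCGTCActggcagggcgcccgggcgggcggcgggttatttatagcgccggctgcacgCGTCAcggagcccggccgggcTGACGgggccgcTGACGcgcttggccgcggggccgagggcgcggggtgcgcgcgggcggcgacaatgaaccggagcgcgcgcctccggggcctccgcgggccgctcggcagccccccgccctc
Nr4a3: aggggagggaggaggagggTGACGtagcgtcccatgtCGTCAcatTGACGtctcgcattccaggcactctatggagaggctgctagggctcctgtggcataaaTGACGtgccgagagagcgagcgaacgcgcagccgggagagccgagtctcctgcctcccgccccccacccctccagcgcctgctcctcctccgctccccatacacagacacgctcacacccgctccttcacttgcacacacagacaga
Each window holds 4 matches to TGACG on both strands together, and 45 of 32851 mouse promoters of this length (0.137%) hold 4 or more. Counting back from the start site, the matches of Nr4a3 begin at -231, -213, -205 and -147, those of Nr4a2 at -200, -144, -123 and -111, and those of Nr4a1 at -233, -213, -69 and -40. A match is a description of the letters and not evidence of binding.

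The EGR genes encode zinc finger factors that SRF and ERK control, and they were not higher with Cd74 by more than the model error. Egr1, the best known of them, had signals of 670 with Empty, 704 with Cd74 and 486 with Tmem54. The Tmem54 array was the low one here: Egr1 differed from Empty by -0.48 ± 0.20 with Tmem54 and by 0.14 ± 0.20 with Cd74, and Cd74 was 0.61 ± 0.20 above Tmem54. Egr2 was dim, with signals of 17.7 and 19.5 on the Empty and Cd74 arrays and 10.9, not well above background, on the Tmem54 array. By its bounds it was at least 1.28-fold lower with Tmem54 than with Empty and at least 1.48-fold lower than with Cd74. The lowest signal well above background on the Tmem54 array, 13.9, sets these bounds. On the log2 scale they were -0.36 ± 0.53 for Tmem54 against Empty and 0.56 ± 0.52 for Cd74 against Tmem54. With normexp the 2 values were only -0.12 and 0.15, so the folds hold for the main processing alone.

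**Figure D2:**
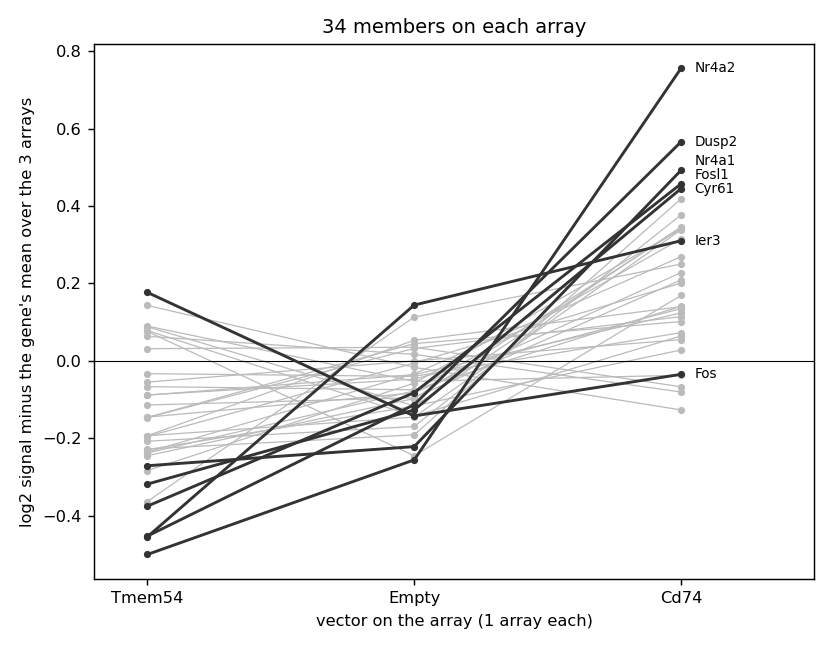
Log2 signal of each of 34 genes minus its mean over the 3 arrays (y axis), for the Tmem54, Empty and Cd74 arrays (x axis, 1 array each; the lines join arrays and show no course in time). Black lines mark 7 genes described in the text: Nr4a2, Dusp2, Nr4a1, Fosl1, Cyr61 and Ier3 were highest on the Cd74 array, and Fos on the Tmem54 array.

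Among the other inducible transcription factors, Myc had the largest difference with Cd74. Myc, the driver of growth and ribosome synthesis, had signals of 7984 with Empty, 11640 with Cd74 and 7851 with Tmem54, a difference of 0.61 ± 0.20 with Cd74 and -0.04 ± 0.20 with Tmem54. Only the Cd74 array was set apart, and a further probe gave 0.54. Srf, the factor that binds CArG boxes and regulates its own gene, read 1394, 1652 and 1346, and was 0.31 ± 0.20 above Empty with Cd74. Klf6, a Krüppel-like factor induced in injured liver, had 17409, 20517 and 15261, with differences of 0.30 ± 0.20 and -0.20 ± 0.20 from Empty. With Cd74, the remaining Krüppel-like factors differed less from Empty. Klf2, a factor of quiescence, was about as high with Cd74 (475) as with Tmem54 (506), against 431 with Empty, with differences of 0.21 and 0.22. Klf4, with 15749, 17080 and 15443, and Maff, a small MAF protein with 2156, 2143 and 1905, had no difference from Empty beyond the model error. Klf10, a target of TGF-beta, was the 1 gene of the set highest on the Empty array in centred values. It read 3359, 2990 and 3379, and its differences of -0.10 with Cd74 and 0.00 with Tmem54 were within the model error.

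The small regulators formed the group most uniform in sign, by the brightest probe of each gene. All 6 that were measured, the Ier, Btg and Zfp36 genes, were above 0 with Cd74 (52.3% of all genes), with a median of 0.35. All 6 were below 0 with Tmem54 (50.9%), with a median of -0.10, but only Ier3 was below it by more than the model error. Ier2, a nuclear protein induced by serum, had signals of 975, 1303 and 951 on the Empty, Cd74 and Tmem54 arrays and was 0.48 ± 0.20 above Empty with Cd74. A dimmer probe that carries the name Ier2, with signals of 38.2, 32.8 and 26.3, gave -0.15 in the same comparison and -0.55 with Tmem54, so the probes disagree in direction for Cd74. Btg2, an antiproliferative gene and target of p53, had 605, 785 and 551, a difference of 0.44 ± 0.20 with Cd74. Btg1, its relative, had 18790, 23580 and 16959, a difference of 0.39 ± 0.20. Their further probes gave 0.42 and 0.28. Zfp36 (tristetraprolin), which binds AU-rich elements and speeds the decay of immediate early and cytokine mRNAs, had 429, 506 and 427 and was 0.30 ± 0.20 above Empty with Cd74. Ier3, a survival factor and regulator of ERK, differed in another way. It read 2071 with Empty, 2220 with Cd74 and 1379 with Tmem54, so the low Tmem54 array (-0.60 ± 0.20) and not the Cd74 array (0.17 ± 0.20) was set apart from Empty. Ier5, with 16599, 17718 and 16141, was within the model error of Empty on both.

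The inhibitors of MAP kinases divided by gene. Dusp2, a nuclear phosphatase of ERK and p38, was dim, with signals of 89.6 with Empty, 137 with Cd74 and 71.4 with Tmem54. It was 0.68 ± 0.21 above Empty with Cd74 and differed from it by -0.34 ± 0.22 with Tmem54, and Cd74 exceeded Tmem54 by 1.02 ± 0.21. That last value read 0.98 with centring on the median, 0.99 in the deposited table and 0.66 with normexp, below 2-fold in each. Dusp4, a further nuclear phosphatase, had 8876, 12388 and 8719, and differed by 0.55 ± 0.20 with Cd74 on both of its probes. Dusp1, which acts on p38 and JNK and is itself a classical immediate early gene, had 1602, 2111 and 1495, a difference of 0.46 ± 0.20. These 3 were all lowest with Tmem54. Dusp5, the nuclear phosphatase that acts on ERK alone, had 989, 1098 and 1003 and was 0.22 ± 0.20 above Empty with Cd74. Dusp6, the cytoplasmic phosphatase of ERK whose transcription follows ERK activity, ran the other way, with 8528 on Empty, 7553 on Cd74 and 9610 on Tmem54. Its differences were -0.11 ± 0.20 with Cd74 and 0.16 ± 0.20 with Tmem54, and Cd74 differed from Tmem54 by -0.27 ± 0.20. Spry2 and Spry4, Sprouty proteins that block receptor tyrosine kinase signalling, read 269, 272 and 240, and 171, 177 and 173, all within the model error of Empty.

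The secreted proteins were few and each had its own pattern. Cyr61 (CCN1), a matricellular protein that binds integrins, had 5493 with Empty, 7802 with Cd74 and 4852 with Tmem54, and differed by 0.57 ± 0.20 with Cd74 and -0.19 ± 0.20 with Tmem54. Ctgf (CCN2), its relative and a mediator of fibrosis, was above Empty with both vectors. It read 16859, 21468 and 21242, differences of 0.41 ± 0.20 with Cd74 and 0.32 ± 0.20 with Tmem54, and Cd74 was 0.09 ± 0.20 above Tmem54. Hbegf, the heparin-binding ligand of the EGF receptor, had 7260, 6487 and 7564 and was within the model error of Empty on both arrays.

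A gene with more than 1 probe allows a check within the arrays, since its probes read other positions under the same gene name. Some of them, as for Ier2, Dusp4 and Dusp5, are listed under different transcripts, so they need not measure the same RNA. Further probes of Fosb, Junb, Klf10, Nr4a3 and Spry2 were not well above background on any array, and those probes are not in this check. Of the genes, 10 had a next-brightest probe well above background on all 3 arrays. In Cd74 against Empty, the gap between the brightest and the next-brightest probe had a median of 0.07, against 0.11 over all 6531 genes with such a pair. Of the 10 pairs, 9 had the same sign and Ier2 did not, with a gap of 0.64 that exceeds the 90th percentile of 0.39 over all genes. The next largest gap was 0.18, for Fosl2. In Cd74 against Tmem54 all 10 pairs had the same sign, and the largest gap was 0.20, again for Fosl2.

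**Figure D3:**
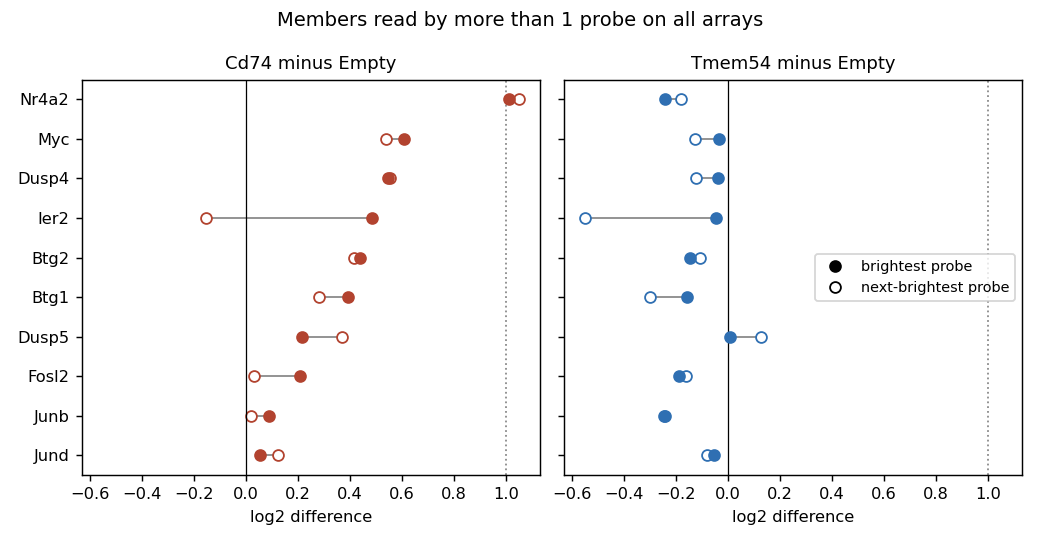
Log2 difference from Empty (x axis) by the brightest probe (filled) and the next-brightest probe (open) for 10 genes with both well above background on all arrays, Cd74 on the left and Tmem54 on the right. The pairs lie close together except for Ier2, at 0.48 and -0.15 with Cd74.

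The promoter windows of 26 of the 37 genes were found in the RefSeq table. The motifs were chosen after their matches were seen, so the shares below are descriptions and were not tested. Only the 250 bases before the start site were searched, so a motif farther away, or in a gene without a window, is not counted. TGACG lay in 16 of these (61.5%), against 19.8% of all 27025 genes, and the palindromic CRE TGACGTCA, which holds 2 overlapping copies of TGACG, in 3 (Maff, Btg2 and Dusp1), against 1.77%. The AP-1 site TGANTCA was in 0 of 26, against 7.82% of all genes. The EGR site GCGNGGGCG was in 11 (42.3%), against 5.33%, the ETS site CCGGAAG in 2 (Srf and Zfp36), against 7.83%, and the CArG box, named for its letters and searched on both strands like the others, in 4 (Egr2, Srf, Zfp36 and Dusp5), against 1.62%. Dusp1 (chr17:26508573-26508672, -) and Fos (chr12:85473740-85473839, +) are shown because CRE letters were found in both, TGACG and the palindrome in Dusp1 and TGACG in Fos, while Dusp1 was higher with Cd74 by 0.46 and Fos by 0.11. Capitals mark these letters.
Dusp1: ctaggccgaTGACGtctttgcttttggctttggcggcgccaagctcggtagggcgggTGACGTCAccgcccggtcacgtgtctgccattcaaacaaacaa
Fos: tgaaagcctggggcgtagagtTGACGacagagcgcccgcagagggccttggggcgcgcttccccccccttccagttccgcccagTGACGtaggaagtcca
Counted from the start site, the Dusp1 stretch begins at -200 and the Fos stretch at -150, and each spans 100 bases. The CArG boxes of Srf (chr17:46556193-46556272, -), Dusp5 (chr19:53529035-53529114, +) and Egr2 (chr10:67537770-67537849, +) are shown because a CArG box is where the product of Srf binds. Capitals mark only the CArG boxes, and for Egr2 the most downstream of 5 listed starts was used.
Srf: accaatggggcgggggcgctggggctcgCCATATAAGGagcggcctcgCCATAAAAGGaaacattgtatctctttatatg
Dusp5: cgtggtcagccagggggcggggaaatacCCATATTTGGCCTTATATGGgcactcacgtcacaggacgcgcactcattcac
Egr2: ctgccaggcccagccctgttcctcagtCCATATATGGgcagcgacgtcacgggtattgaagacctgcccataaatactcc
Srf and Dusp5 hold 2 boxes each in these 80 bases and Egr2 holds 1. With Cd74, Srf and Dusp5 differed from Empty by 0.31 ± 0.20 and 0.22 ± 0.20. Egr2, at 0.20 ± 0.39, was within its model error and read 0.02 with normexp. In Cd74 against Empty, the 16 genes with TGACG had a median of 0.21 and the 10 without it 0.19. The 11 genes with the EGR site had a median of 0.30 and the 15 without it 0.17. The medians with and without the motif were 0.44 (3 genes) and 0.21 for the palindromic CRE, 0.26 (4 genes) and 0.19 for the CArG box, and 0.31 (2 genes) and 0.21 for the ETS site. These splits of a few genes were not tested.

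Genes upstream of the set and related to it were taken from lists of known pathway members, which were drawn up with earlier results of these data known. The genes named below were picked mainly for large differences. The transcripts of the ERK cascade and the SRF cofactors, 19 measured of 20, lay between -0.30 (Elk3) and 0.27 (Sos1) with Cd74, with a median of -0.04. Of the 19, 0 were 2-fold apart, where 1.02% of all genes were higher and 1.4% lower by that much. The p38 and JNK cascade had a median of -0.02 over 14 genes, and Mapk8 (JNK1), with signals of 150, 226 and 144, was its highest at 0.66. The other feedback inhibitors of ERK had a median of -0.03 over 15 genes, and Spry1, a further Sprouty gene, was their lowest with 2709 on Empty, 1857 on Cd74 and 3252 on Tmem54, a difference of -0.48. RNA levels of the kinases do not measure their activity.

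Among EGF family ligands and receptors the median was 0.10 over 9 genes. Areg (amphiregulin), a ligand of the EGF receptor, was the 1 at least 2-fold apart in any comparison, with signals of 1238, 2127 and 1066 and a difference of 1.07 between Cd74 and Tmem54. In that comparison 1.63% of all genes were at least 2-fold higher. Of 13 measured YAP and TEAD targets, the class to which Cyr61 and Ctgf belong, 7 were above 0 with Cd74, close to the 52.3% of all genes, with a median of 0.08. F3 (tissue factor) read 586, 1299 and 552 and was 1.21 above Empty with Cd74, the 1 gene of the list past 2-fold there (1.02% of all genes higher). Against Tmem54, 3 were at least 2-fold higher with Cd74 (1.63%) and 0 lower (1.69%). These were F3 at 1.31, Ptpn14 (112, 197 and 76.8) at 1.44 and Tgfb2 at 1.14 ± 0.37. Tgfb2 was dim, with 26.1, 31.6 and 15.1, where the lowest signal well above background on the Tmem54 array was 13.9.

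The CREB, ATF and MAF leucine zipper genes, partners of AP-1 subunits, had values far to both sides of Empty with Cd74. Over 20 genes the median was 0.08, and past 2-fold 0 were higher (1.02% of all genes) and 2, Maf and Batf2, were lower (1.4%). Atf3, a stress-induced relative of Fos, read 383, 704 and 286 and was 0.95 above Empty with Cd74 and 1.38 above Tmem54. Maf, a large MAF protein, ran the other way at 1784, 825 and 2308, a difference of -1.05 with Cd74. Batf2 was low with both vectors, at 17.8 and 16.7 against 57.0 with Empty, differences of -1.61 and -1.78, so its Empty array is the one set apart.

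Delayed primary response genes, which follow within hours, had a median of 0.15 with Cd74 over 23 genes (2 of them as bounds), of which 17 were above 0 (52.3% of all genes), and of 0.36 for Cd74 against Tmem54. Plau (urokinase) was well above background on the Cd74 array only, with a signal of 40.7. It was at least 3.25-fold higher than with Empty and, against Tmem54, at least 3.09-fold. Gadd45b, a stress sensor upstream of p38 and JNK, was 1.26 higher with Cd74 than with Tmem54, and Tnfaip3 (A20), an inhibitor of NF-kappaB, 1.06. Not all of the list was higher with Cd74. Ccnd1 (cyclin D1), a growth factor target that carries cells into S phase, had signals of 38794, 20968 and 43824, a difference of -0.82, and Id1, a target of BMP signalling, differed by -0.94. Among 16 measured sequence relatives of the set the median was 0.05. They ranged from Ccn3, a relative of Cyr61 and Ctgf, at -0.83 to Klf11, dim with 15.5, 29.4 and 16.9, at 0.99.

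**Figure D4:**
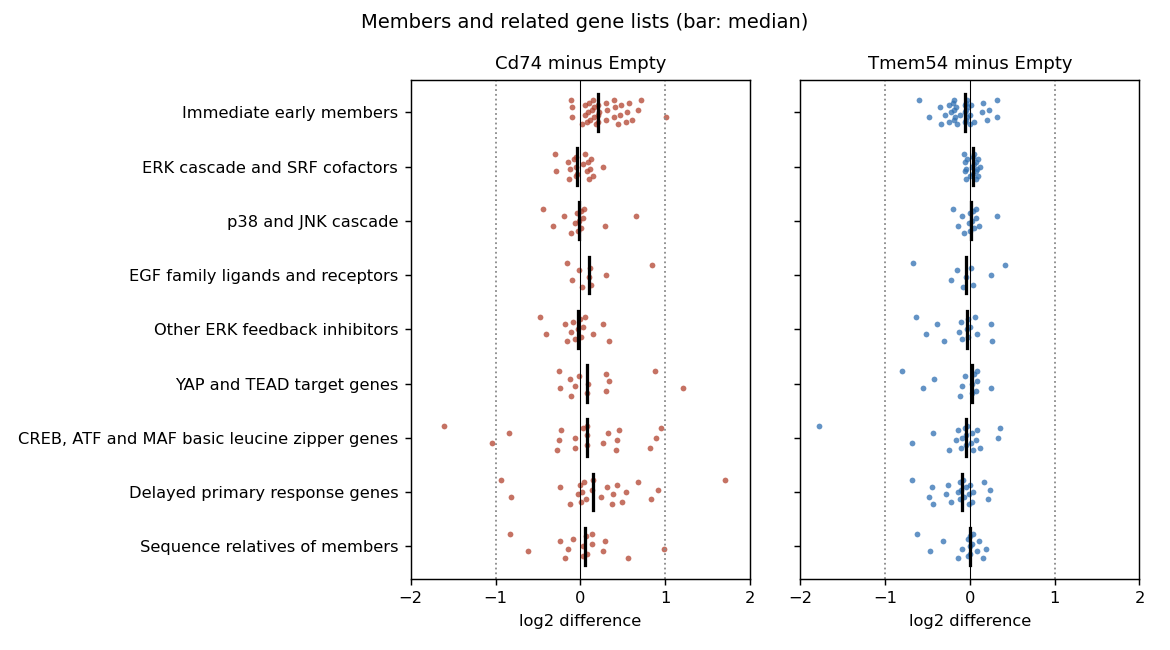
Log2 difference from Empty (x axis) for each measured gene of the immediate early set and of 8 related lists (y axis), Cd74 on the left and Tmem54 on the right; black bars are list medians and dotted lines mark 2-fold. The immediate early set has its median at 0.21 with Cd74, the ERK cascade at -0.04, and the point of the delayed primary response genes farthest to the right is the bound for Plau.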

How the data were processed

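Total RNA of 3 transfections of Hepa1c1c7 cells was measured, 1 array per vector, and groups follow the transfection label. All 3 arrays lay on 1 slide. The deposited processed intensity is the output of Agilent Feature Extraction 12.0.3.1, per the file headers. The authors also deposited a value table, in which each value is the ratio of the processed intensity to a constant of its array. The constants were 580.3, 559.8 and 580.7 for Empty, Cd74 and Tmem54, found by comparison with the scanner values. The table is thus linear and uncentred, with column medians of 0.0409, 0.0393 and 0.0390.

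From the deposited intensity the log2 value was taken and the 75th percentile over spots other than controls subtracted. Outlier-flagged spots were left out (119 to 135 per array), 0 spots were saturated, and spots of a probe were averaged. The brightest probe with a signal well above background on any array stood for a gene. Where only 1 of the arrays compared reached that level, a bound is given. For it the dim array was given its lowest signal that passed, or the signal of the probe where that was higher. A gene counted at 2-fold. With 1 array per vector no test was run, so no p-value is given, and the number of arrays limits the precision. Replicate spots had a median SD of 0.036 to 0.038, and the model error of 1 array a median of 0.145 on the log2 scale.

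Probes were named through a RefSeq table of assembly GRCm38.p6, 33717 by accession, 9859 by symbol and 310 by a unique synonym; 12662 had no symbol, and the 57 probes of the set were taken by the gene name in the files. Probe positions are on build mm9 from the files, and their place in exons or UTRs was not analysed here. Promoters came from RefSeq on GRCm38.p6, and motifs were chosen after their matches were seen.

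The genes of the set and the related lists were chosen with earlier results of these data known. All 37 genes are named; of related lists, genes at least 2-fold apart or up to 3 with the largest differences, to which a few others were added after their values were seen. Of these, 2 genes are not reported here. Alternatives were normexp (offset 50, limma 3.58.1 in R 4.3.3), median centring, quantile normalization, the deposited table, stricter limits on dim probes, other probe choices and a 1.5-fold count. Other steps used Python 3.11.15, numpy 2.4.6, pandas 2.3.3 and matplotlib 3.10.9, and were tested on simulated data.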

Additional observations from a re-analysis of the deposited data

How the results depend on the processing

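No alternative turned the direction of the set's median in any comparison. Medians ranged from 0.19 to 0.30 for Cd74 against Empty, from -0.13 to -0.04 for Tmem54 against Empty and from 0.32 to 0.45 for Cd74 against Tmem54. The larger values came from fewer genes: bright probes (28 genes) gave 0.30 and 0.45 with Cd74, and the next-brightest probe (11 genes) gave 0.28 for Cd74 and -0.13 for Tmem54 against Empty. The count of genes 2-fold apart in Cd74 against Empty, 1 in the report, was 0 with normexp, with centring on the median and with the deposited value table, and 4 at 1.5-fold. In Tmem54 against Empty it was 0, and 1 at 1.5-fold. In Cd74 against Tmem54 it was 2, but 1 with normexp, centring on the median, the deposited value table, bright probes or the next-brightest probe, and 10 at 1.5-fold. Bright probes leave Dusp2 out, and it has no next-brightest probe. With the other settings Dusp2 fell below 2-fold, at 0.66 with normexp, 0.98 with centring on the median and 0.99 in the deposited value table. Why its value differed between settings was not tested. Leaving out a replicate was not possible with 1 array per vector. No paired analysis was possible because each vector has 1 array and the labels carry no replicate numbers. Slide could not be used as a block, since all 3 arrays lay on 1 slide. Egr2, Egr3 and Arc were too dim to be compared on all arrays, and differences below about 0.20 are within the model error.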

Other observations

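Probes within 20 kb of the genes of the set, and not of the set itself, were also read. There were 59 such probes near 27 genes, 53 of them measured on all 3 arrays, with a median difference of -0.01 in Cd74 against Empty. Past 1.5-fold, 2 were higher with Cd74 and 1 was lower, near or below the shares of all genes (3.38% higher and 4.14% lower). Both higher probes lie near Cyr61. Gm17501, a long non-coding RNA gene that lies next to Cyr61 (Ccn1) in the RefSeq table, has its probe on the opposite strand (chromosome 3, 145315123 to 145315182, + strand, build mm9), while the Cyr61 probe is on the - strand. It was dim, with signals of 49.4 with Empty, 97.6 with Cd74 and 42.1 with Tmem54, differences from Empty of 1.05 and -0.24. An unnamed probe on the same strand (145314877 to 145314936) read 83.7, 127 and 59.5, differences of 0.66 and -0.50. Both were highest with Cd74 and lowest with Tmem54. The lower probe is an unnamed one near Nr4a3 (chromosome 4, 48054342 to 48054401, - strand), with signals of 33.3, 20.8 and 20.5, where the Empty array is the one set apart.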
